A study of Homo sapiens with 9 samples.

Results

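Haem oxygenase and iron handling genes were examined in LNCaP, an established human prostate cancer cell line that responds to androgen. The group holds 10 genes: HMOX1, BLVRA and BLVRB of haem breakdown, FTH1 and FTL of iron storage, TFRC of iron uptake, FECH and ABCB6 of haem synthesis, and ACO1 and IREB2 of iron sensing. All probe sets that the platform annotation assigns to these symbols were taken, with a brighter and a dimmer probe set added for FTH1 by the rule that defines the group, since the annotation used here does not list them. This gave 17 of 22215 probe sets for 9 of the 10 genes, and IREB2 is not analysed here.

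Affymetrix arrays measured RNA from cells that had spent 2 days under steroid-poor conditions, with 10% charcoal-stripped serum in RPMI. One group then received ethanol and DMSO (labelled vehicle), another received 1 nM R1881, a synthetic androgen, with DMSO, and the last received 1 nM R1881 with 20 µM gedunin, a limonoid from the neem family of plants that interferes with HSP90. Each group has 3 arrays marked as biological replicates, 9 in all, and gedunin was not given without R1881. Treatment lasted 24 h by the labels, except that the titles of the group labelled R1881 give 6 h while its descriptions give 24 h. If the titles hold, length of treatment and gedunin cannot be told apart in the comparison of these groups. The labels say nothing more on whether replicates were separate cultures.

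Haem oxygenase opens the haem ring and releases iron, carbon monoxide and biliverdin, which biliverdin reductases turn into bilirubin. The iron set free can be stored in ferritin, a shell of heavy (FTH1) and light (FTL) chains. Iron regulatory proteins, encoded by ACO1 and IREB2, bind iron responsive elements when iron is scarce, where they block translation of ferritin mRNAs and stabilise the TFRC mRNA. HMOX1 and both ferritin genes are also classic targets of the transcription factor NRF2, and BACH1 is a haem-sensing repressor of HMOX1.

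The androgen genes go against the labels of the control groups, so groups are called by their labels throughout. KLK3, which encodes prostate-specific antigen, measured 11839 ± 513 on the arrays labelled vehicle and 1341 ± 104 on those labelled R1881, and FKBP5, an androgen-induced co-chaperone gene, 1815 ± 147 and 45.1 ± 3.15 (intensity, mean ± SD, n = 3). Every direction between these groups therefore rests on labels that these genes contradict. If the labels were exchanged, the gedunin arrays would differ from those labelled R1881 by the androgen as well as by gedunin. Androgen and gedunin could not then be told apart in that comparison, where a rise with gedunin means a difference between labelled groups. The arrays labelled vehicle would then be the ones that share the androgen with the gedunin arrays. On the gedunin arrays the mean was 7215.5 for KLK3 and 121.5 for FKBP5, between the other groups for both genes. Array medians lay between 52.4 and 54.5, so a mean under 52.4 is called dim here and a fold against it is approximate. Of 9 measured luminal prostate markers 0 were dim in any group, but their levels differed between groups. Their summed intensity, which includes KLK3, was 16874 to 17953 on the gedunin arrays. On those labelled vehicle it was 29003 to 31165, and on those labelled R1881 8738 to 9095. Of 7 fibroblast markers 2 were dim in every group, and COL1A1 had group means of 181 to 185. Among macrophage and red cell markers 6 of 9, including PTPRC, CD14 and ALAS2, were dim in every group. The others, AIF1, SLC4A1 and HBB, had group means of 76.2 to 106. The dim line alone therefore does not separate cell types. The summed intensity of the 9 macrophage and red cell markers was 437 to 456 on the gedunin arrays. It was 430 to 454 on those labelled vehicle and 410 to 473 on those labelled R1881. In bulk RNA, fewer cells with a transcript and less of it per cell cannot be told apart.

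The sequences below, from RefSeq (GRCh38.p14), show the stretch before the start of 4 members with called rises over the arrays labelled R1881. The promoter table held windows of 250 bases before to 50 bases after the start for 8 of the 10 members, all but HMOX1 and FTH1. FTL was lowest on the arrays labelled vehicle, and the bright probe sets of ABCB6, TFRC and FECH were lowest on those labelled R1881. Capitals mark matches to TGACNNNGC, the core of an antioxidant response element, searched on both strands. Each line gives the 250 bases before the start, 5′ to 3′ on the strand of the gene.
FTL (chr19:48965059-48965308, plus strand): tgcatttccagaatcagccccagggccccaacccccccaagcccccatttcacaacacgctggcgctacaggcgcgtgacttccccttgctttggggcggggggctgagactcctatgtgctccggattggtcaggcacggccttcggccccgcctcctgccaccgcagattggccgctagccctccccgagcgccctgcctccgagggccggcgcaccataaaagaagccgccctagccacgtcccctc
ABCB6 (chr2:219218959-219219208, minus strand): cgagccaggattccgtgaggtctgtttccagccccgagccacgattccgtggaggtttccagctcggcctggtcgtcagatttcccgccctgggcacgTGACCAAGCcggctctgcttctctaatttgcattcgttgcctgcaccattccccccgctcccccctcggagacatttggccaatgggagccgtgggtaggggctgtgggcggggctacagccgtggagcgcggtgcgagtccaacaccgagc
TFRC (chr3:196082091-196082340, minus strand): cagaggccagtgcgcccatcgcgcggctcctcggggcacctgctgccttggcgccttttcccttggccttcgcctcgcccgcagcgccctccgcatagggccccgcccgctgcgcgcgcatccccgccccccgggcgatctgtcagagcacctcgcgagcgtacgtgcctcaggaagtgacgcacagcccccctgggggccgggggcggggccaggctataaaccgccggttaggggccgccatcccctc
FECH (chr18:57586703-57586952, minus strand): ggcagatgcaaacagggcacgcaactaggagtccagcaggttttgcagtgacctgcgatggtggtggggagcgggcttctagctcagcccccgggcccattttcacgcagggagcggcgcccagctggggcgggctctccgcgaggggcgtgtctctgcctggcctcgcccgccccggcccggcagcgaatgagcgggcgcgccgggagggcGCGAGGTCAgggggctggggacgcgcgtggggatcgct

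TGACNNNGC matched in the windows of ABCB6, where it begins at position -152 on the sense strand, and of FECH, where it lies on the antisense strand and its leftmost base is at position -38. Positions count from the start of the gene, and 13.3% of all promoter windows of this length hold a match. TGATGNAA (a CEBP-ATF element), held by 3.62% of windows, and GAANNTTC (the core of a heat shock element), held by 6.77%, matched in none of the members' windows. These are matches of letters only. The loop of an iron responsive element, CAGTGN, searched on the sense strand after the start, matched in 6.36% of all windows and among the members in FTL, at position 39. It is printed because this is the site through which iron regulatory proteins hold back ferritin translation, with the loop in capitals.
FTL loop (chr19:48965335-48965358, plus strand): ctcttgcttcaaCAGTGTttggac

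Most of the group was higher on the gedunin arrays. Of the 17 member probe sets, 14 had risen and 0 had fallen on the gedunin arrays relative to those labelled R1881 (limma over all probe sets with Benjamini-Hochberg adjustment, threshold 0.05), against 12.4% of all probe sets called higher and 11.9% called lower. At an unadjusted p under 0.05, 14 were higher and 1 lower. Called in either direction were 14 of 17, against 24.3% of all, and the groups did not overlap in 15 of 17, against 34.6%. The median log2 fold change of the members was 0.63 and that of all probe sets -0.01. Against the arrays labelled vehicle 12 were higher and 0 lower, also 12 and 0 at an unadjusted p under 0.05, where 12.9% of all probe sets were higher and 10.6% lower, with medians of 0.32 and -0.01. That is 12 of 17 called in either direction against 23.5%, and 15 of 17 without overlap against 35.5%. Called rises of at least 2-fold numbered 5 and 4 of 17 member probe sets, against 1.45% and 0.932% of all, and called falls of that size 0 and 0, against 0.806% and 1.04%. In genes, taken by their brightest probe set, 8 of 9 rose over the arrays labelled R1881 and 7 of 9 over those labelled vehicle, where 13.7% and 14.8% of all genes did and 26.7% and 26.2% were called in either direction. The gedunin arrays enter both comparisons. If the labels were exchanged, only the comparison with the arrays labelled vehicle would be between groups that share the androgen. There 12 of 17 were still called higher, but TFRC 207332_s_at (log2 fold change 0.11) and FECH 203116_s_at (-0.02) were not. Over the arrays labelled R1881 these probe sets were called, at 0.63 and 0.91. Whether those rises come from gedunin or from the androgen was not tested. The members were chosen with earlier results of these data known, so these shares describe the group and do not test it.

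**Figure D1:**
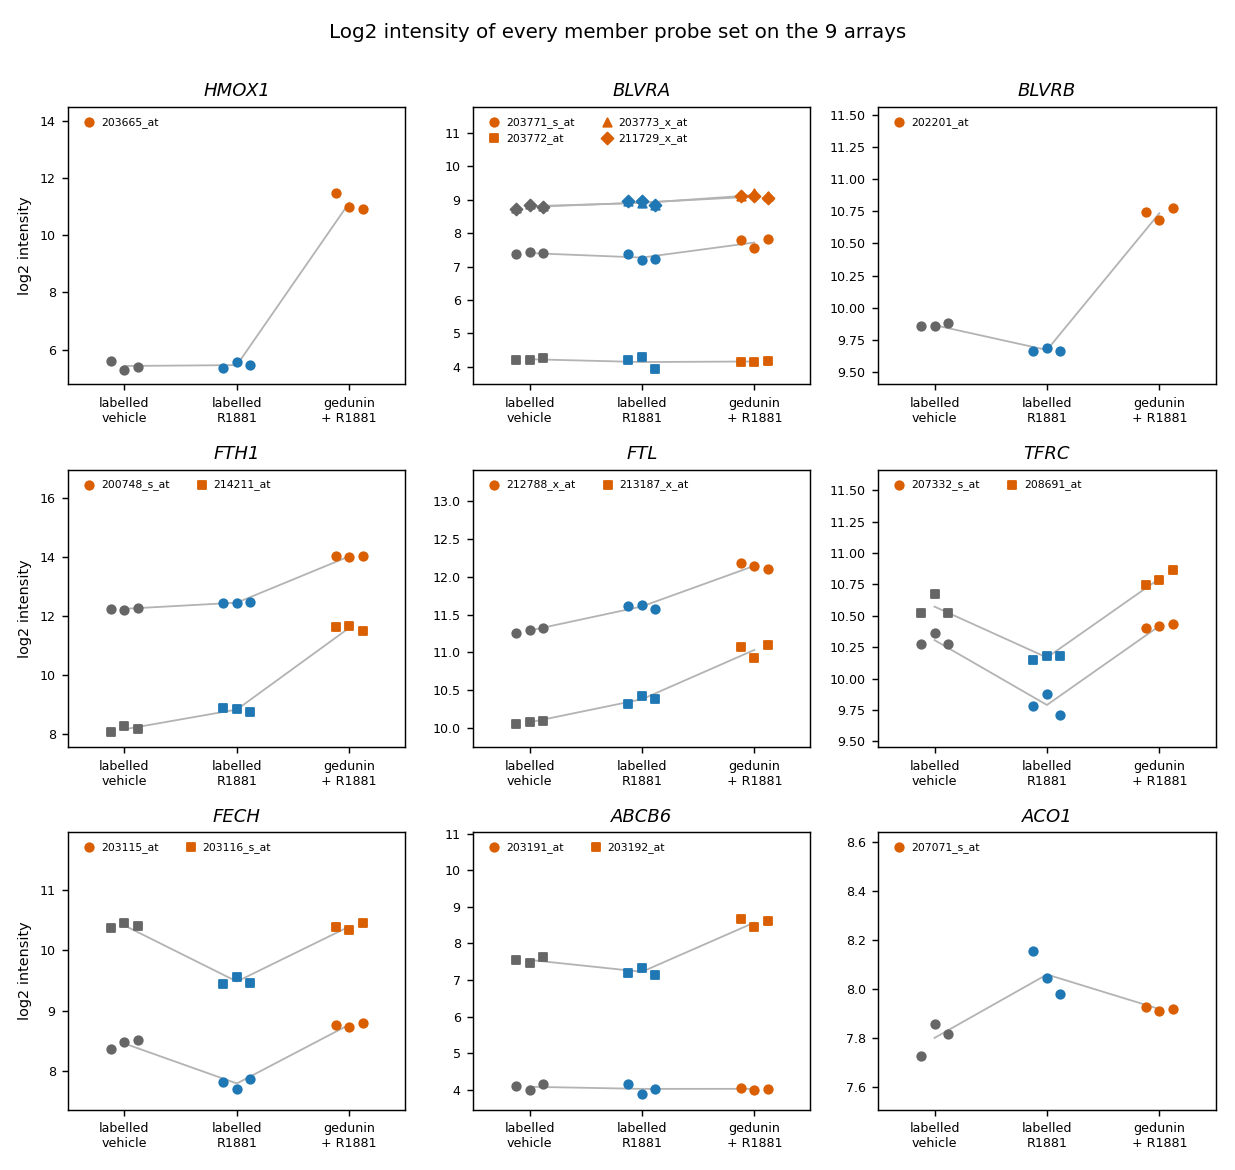
Log2 intensity (y axis, a scale of its own in each panel) of every member probe set on the 9 arrays, by title group (x axis); points are arrays, marker shapes are probe sets and lines join group means. HMOX1 stands near 5.4 in both groups without gedunin and at 11.13 with it, while TFRC and FECH are lowest on the arrays labelled R1881.

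HMOX1, the inducible haem oxygenase, showed the largest change of the group. Its intensities were 48.4, 39.2 and 42.0 on the arrays labelled vehicle, 41.0, 47.6 and 43.6 on those labelled R1881, and 2861, 2039.8 and 1936 on the gedunin arrays. The gedunin values stood far above the rest, and the groups without gedunin overlapped and were dim. The fold was 51.1 over the arrays labelled R1881 (log2 fold change 5.67 ± 0.13, SE, limma adjusted p = 2.1e-11) and 52.1 over those labelled vehicle (5.70 ± 0.13, adjusted p = 1.97e-11). Because the lower groups were dim, these folds are approximate. Among 22215 probe sets, HMOX1 ranked 1 by rise in each of these comparisons. Between the groups without gedunin the log2 difference was 0.03, with a 95% confidence interval from -0.25 to 0.31. The spread of HMOX1 on the gedunin arrays was wide, with a coefficient of variation of 22.2%, against 0.564% to 9.89% for the other member probe sets, and replicate 1 was the highest.

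BLVRB, the biliverdin reductase B that also reduces flavins, rose less and with little spread. It measured 927.4, 927.4 and 943 on the arrays labelled vehicle, 809, 826 and 811 on those labelled R1881, and 1718, 1643 and 1753 on the gedunin arrays. The 3 groups did not overlap. The rise was 2.09-fold over the arrays labelled R1881 (log2 fold change 1.06 ± 0.05, SE, limma adjusted p = 1.03e-08) and 1.83-fold over those labelled vehicle (0.87 ± 0.05, adjusted p = 7.01e-08).

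BLVRA, the main adult biliverdin reductase, changed little. Probe set 203773_x_at read 428, 469 and 449 on the arrays labelled vehicle, 503, 480.04 and 457 on those labelled R1881, and 557, 585 and 552 on the gedunin arrays, and its log2 changes with gedunin were 0.23 and 0.33 against the groups labelled R1881 and vehicle. Probe set 203771_s_at gave 0.45 and 0.32, and 211729_x_at gave 0.18 and 0.31. These 3 were called higher in both comparisons, while 203772_at was dim in every group, at 17.7 to 18.7, and was not called. The rise of 211729_x_at over the arrays labelled R1881 was marginal (log2 fold change 0.18, limma adjusted p = 0.0437) and was lost in 10 of the 16 alternative settings that gave it a value. Probe set 203773_x_at lost its call there after a further quantile normalisation (limma adjusted p = 0.0713). The suffix x marks probe sets that may bind other transcripts.

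Ferritin rose in both chains, with larger log2 changes in the heavy chain probe sets. For FTH1, which carries the ferroxidase activity of ferritin, the brighter probe set read 4896, 4745 and 4971 on the arrays labelled vehicle, 5559, 5645 and 5681 on those labelled R1881, and 16762, 16292 and 17003 on the gedunin arrays. The highest value of any probe set on an array lay between 19276 and 20189, so the gedunin values of this probe set are close to the top of the scale, where intensities can flatten. The log2 fold change was 1.57 ± 0.05 (SE, 2.96-fold, limma adjusted p = 3.13e-10) over the arrays labelled R1881 and 1.78 ± 0.05 (3.43-fold, adjusted p = 1.26e-10) over those labelled vehicle.

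The dimmer FTH1 probe set moved more. It read 269, 309 and 289 on the arrays labelled vehicle, 479.7, 469.7 and 429 on those labelled R1881, and 3177, 3287 and 2905 on the gedunin arrays. The groups were again fully apart. Its fold was 6.80 (log2 fold change 2.76 ± 0.07, SE, limma adjusted p = 6.96e-11) and 10.8 (3.43 ± 0.07, adjusted p = 1.77e-11), in the same order, and it ranked 14 and 6 of 22215 by rise. The size of the FTH1 rise therefore depends on the probe set, by more than 2-fold in each comparison. FTH1 has many processed pseudogenes whose transcripts such probe sets may bind. The probe set annotated to the pseudogene FTH1P5 rose by 1.07 and 1.18 on the log2 scale.

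FTL, the light chain that supports mineralisation of the iron core, rose by less than FTH1. Probe set 212788_x_at read 2448, 2506 and 2558 on the arrays labelled vehicle, 3132, 3179 and 3059 on those labelled R1881, and 4671, 4529 and 4403 on the gedunin arrays. Each group stood clear of the next. The log2 fold change was 0.54 ± 0.05 (SE, limma adjusted p = 5.83e-06) and 0.86 ± 0.05 (adjusted p = 9.46e-08) against the groups labelled R1881 and vehicle. Probe set 213187_x_at, with group means of 1078 ± 15.1, 1334 ± 49.0 and 2098 ± 134 (SD, n = 3) in the order vehicle, R1881 and gedunin, gave 0.65 and 0.96.

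TFRC, the transferrin receptor that takes up iron-loaded transferrin, followed another order, with its lowest level on the arrays labelled R1881. Probe set 208691_at read 1469, 1634 and 1471 on the arrays labelled vehicle, 1134, 1158 and 1158 on those labelled R1881, and 1713, 1759 and 1862 on the gedunin arrays. It rose with gedunin by 0.63 ± 0.06 over the arrays labelled R1881 (log2 fold change ± SE, limma adjusted p = 5.25e-06) and by 0.22 ± 0.06 over those labelled vehicle (adjusted p = 0.0166). The latter call was lost without gedunin plus R1881 replicate 3, vehicle replicate 1 or vehicle replicate 3 (limma adjusted p = 0.0724, 0.0705 and 0.0701, in that order).

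The other TFRC probe set, 207332_s_at, agreed on the rise over the arrays labelled R1881 but not over those labelled vehicle. It read 1240.3, 1318 and 1240.3 on the arrays labelled vehicle, 880.1, 939 and 838 on those labelled R1881, and 1351, 1369 and 1385 on the gedunin arrays. The first and the third value of the group labelled vehicle are exactly equal as deposited. The log2 fold change was 0.63 ± 0.06 (SE, limma adjusted p = 3.82e-06) over the arrays labelled R1881 and 0.11, with a 95% confidence interval from -0.01 to 0.24, over those labelled vehicle (adjusted p = 0.216), where the groups did not overlap. Ferritin and transferrin receptor transcripts were thus both higher on the gedunin arrays than on those labelled R1881.

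FECH, ferrochelatase, which inserts iron into protoporphyrin to make haem, was also lowest on the arrays labelled R1881. Its probe sets differed in whether a rise with gedunin over the arrays labelled vehicle was called. Probe set 203116_s_at read 1330.2, 1396 and 1361 on the arrays labelled vehicle, 694, 750.4 and 704 on those labelled R1881, and 1341, 1297 and 1403 on the gedunin arrays. The gedunin arrays and those labelled vehicle overlapped, and both stood above the arrays labelled R1881. The log2 fold change was 0.91 ± 0.06 (SE, limma adjusted p = 1.04e-07) over the arrays labelled R1881 and -0.02 against those labelled vehicle, with a 95% confidence interval from -0.14 to 0.11. Probe set 203115_at, with group means of 351 ± 17.4, 222 ± 13.5 and 436 ± 9.97 (SD, n = 3) in the order vehicle, R1881 and gedunin, rose by 0.97 and by 0.31 (limma adjusted p = 0.00234).

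ABCB6, an ATP-driven transporter linked to porphyrin movement, rose with gedunin over both groups. Probe set 203192_at read 188, 175 and 199 on the arrays labelled vehicle, 145, 162 and 142 on those labelled R1881, and 404, 349 and 388 on the gedunin arrays. The 3 groups did not overlap. It rose 2.54-fold (log2 fold change 1.35 ± 0.08, SE, limma adjusted p = 4.18e-08) and 2.03-fold (1.02 ± 0.08, adjusted p = 5.87e-07) over the arrays labelled R1881 and vehicle. Probe set 203191_at was dim on all arrays, at 14.8 to 17.9, and was not called.

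ACO1, the cytosolic aconitase that doubles as iron regulatory protein 1, was the gene of the group without a call in either gedunin comparison. It read 212, 232 and 225 on the arrays labelled vehicle, 285, 264 and 252 on those labelled R1881, and 243, 240.5 and 241 on the gedunin arrays. The gedunin arrays lay between the other groups. The log2 fold change was -0.14 (95% confidence interval -0.27 to -0.01, limma adjusted p = 0.125) against the arrays labelled R1881 and 0.12 (-0.01 to 0.25, adjusted p = 0.214) against those labelled vehicle. After a further quantile normalisation, the difference from the arrays labelled R1881 was called, at -0.18 (limma adjusted p = 0.0391).

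**Figure D2:**
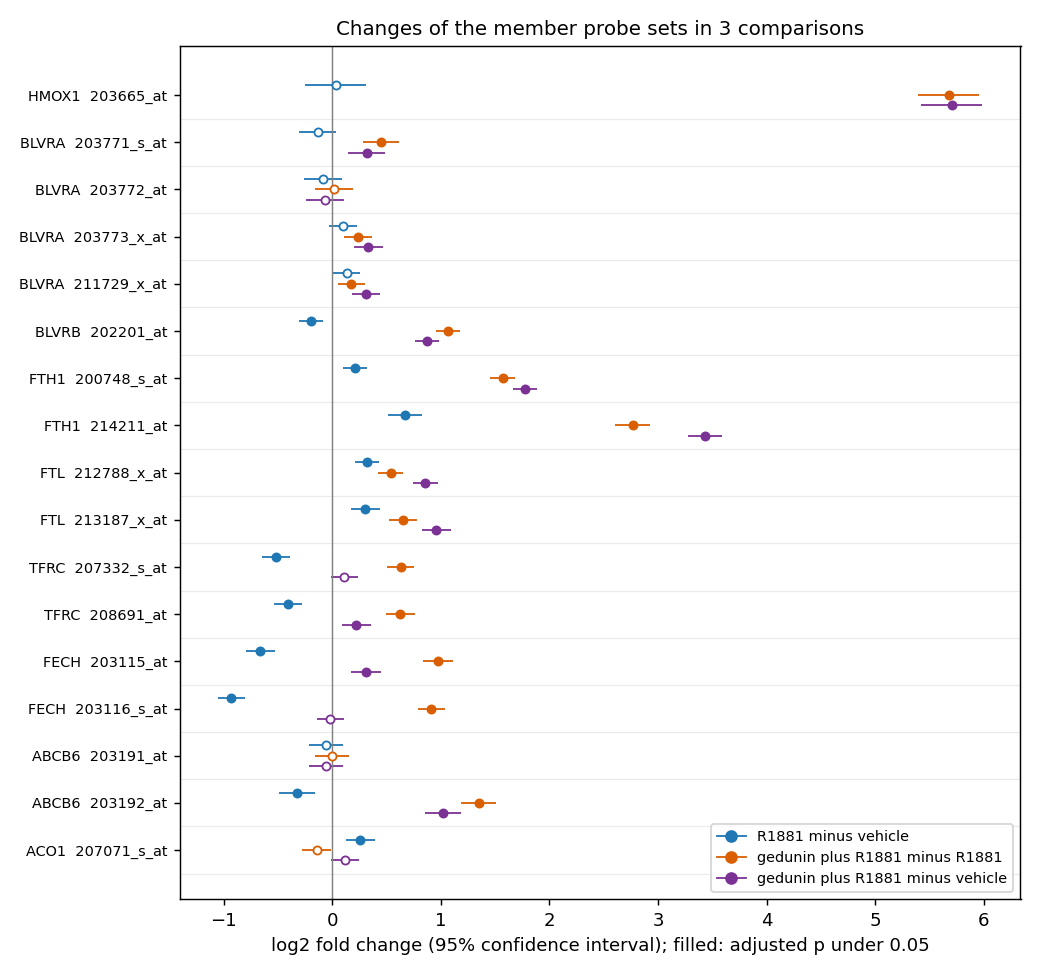
Log2 fold change (x axis) of the 17 member probe sets (y axis) in the 3 comparisons, with 95% confidence intervals; filled points have an adjusted p under 0.05. HMOX1 stands at 5.67 and 5.70 in the gedunin comparisons, the FTH1 probe sets at 1.57 to 3.43, and TFRC and FECH lie left of 0 for R1881 minus vehicle.

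Between the groups without gedunin the members split. Of 17 probe sets, 5 were higher on the arrays labelled R1881 and 6 lower (limma, adjusted over all probe sets), where 14.8% of all probe sets were higher and 12.2% lower. That is 11 called in all, against 27% of all probe sets, and 11 without overlap, against 36.8%. In genes, 3 of 9 were higher and 4 lower, where 16.3% and 13.2% of all genes were, 29.5% in either direction. The higher ones were both FTH1 and both FTL probe sets and that of ACO1, and the lower ones those of BLVRB, TFRC, FECH and the bright ABCB6 probe set. None of the 17 changed by 2-fold with a call, where 1.1% of all probe sets rose and 1.98% fell by that much. The largest called differences were those of the FECH probe sets, at -0.93 ± 0.06 and -0.66 ± 0.06 (log2 fold change ± SE, limma adjusted p = 5.92e-08 and 3.6e-06), and of the dimmer FTH1 probe set, at 0.67 ± 0.07 (adjusted p = 1.23e-05). TFRC was at -0.52 and -0.41, ABCB6 at -0.33, BLVRB at -0.19, FTL at 0.32 and 0.31, and ACO1 at 0.26. The call of BLVRB was lost after a further quantile normalisation (-0.12, limma adjusted p = 0.106), and BLVRA 211729_x_at gained a call there, at 0.18 (adjusted p = 0.0311). Exchanging the labels of these groups would turn every sign here and leave the sizes.

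Among other haem synthesis enzymes, the first one rose most. Of 6 measured genes, 1 was higher and 2 lower on the gedunin arrays than on those labelled R1881 (limma, all genes 13.7% higher and 13% lower), and 2 were higher and 0 lower than on those labelled vehicle, with 3 higher and 1 lower at an unadjusted p under 0.05 (all genes 14.8% and 11.4%). ALAS1, the rate-limiting enzyme in most tissues, rose from 327 ± 18.9 (vehicle) and 334 ± 11.5 (R1881) to 736 ± 32.6 (SD, n = 3), with log2 fold changes of 1.17 and 1.14 (limma adjusted p = 2.52e-08 and 3e-08). PPOX and UROD, later enzymes of the pathway, were at -0.32 and -0.30 against the arrays labelled R1881 and at 0.07 and 0.13, without a call, against those labelled vehicle. CPOX, at 0.41, was the other enzyme called higher than on the arrays labelled vehicle, though it was dim on both.

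Among 7 measured genes of haem transport and binding, 4 were higher and 2 lower with gedunin than on the arrays labelled R1881, and 2 were higher and 1 lower than on those labelled vehicle (limma). Of all genes, 13.7% were higher and 13% lower in the former comparison, and 14.8% and 11.4% in the latter. SLC48A1, which carries haem out of endosomes and lysosomes, rose by 0.56 and 0.75 in the same order, and a dimmer probe set of it rose by 0.90 and 1.14, while its remaining probe set stood at 0.16 and 0.14 without a call. FLVCR2 rose by 0.52 and 0.52 from dim levels. HEBP2, a haem-binding protein gene, rose by 0.21 over the arrays labelled R1881 but stood at -0.88 against those labelled vehicle. ABCG2 was dim in all groups. HMOX2, the constitutive haem oxygenase, rose by 0.39 over the arrays labelled R1881 (limma adjusted p = 0.00105) and stood at 0.04 against those labelled vehicle (adjusted p = 0.755).

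Of 15 measured iron transport and reductase genes, 1 was higher and 2 lower than on the arrays labelled R1881, and 0 were higher and 4 lower than on those labelled vehicle, also 0 and 4 at an unadjusted p under 0.05 (limma). The shares called in either direction over all genes were 26.7% and 26.2%, beside 3 and 4 of 15 here, which is near that background. By direction, 13.7% of all genes were higher and 13% lower against R1881, and 14.8% and 11.4% against vehicle. The 4 calls against vehicle were all falls. SLC39A8, a metal importer, was at -1.30 against the arrays labelled R1881 and -0.29 against those labelled vehicle (limma adjusted p = 1.36e-08 and 0.0047), with its other probe sets from -1.52 to 0.02 in the former comparison. STEAP4, a metalloreductase, fell from 66.0 on the arrays labelled vehicle to 13.0 with gedunin and 12.3 on those labelled R1881, which are dim. SLC25A37, the mitochondrial iron importer mitoferrin 1, was at -0.83 against the arrays labelled vehicle (limma adjusted p = 2.35e-05), with -1.41 and -0.71 from its other probe sets. STEAP1 was at -0.20 and -0.25.

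Of 5 iron storage and chaperone genes, 2 were higher and 2 lower than on the arrays labelled R1881, and 2 higher and 1 lower than on those labelled vehicle (limma), where 13.7% and 13%, and 14.8% and 11.4%, of all genes were. GLRX3, a cytosolic glutaredoxin that handles iron-sulphur clusters, rose by 0.94 and 0.77, with 0.31 and 0.24 from its next brightest probe set. NCOA4, the receptor that delivers ferritin to lysosomes, was at 0.22 (limma adjusted p = 0.0166) and 0.10 (adjusted p = 0.3). FBXL5, the iron-sensing subunit that marks iron regulatory proteins for degradation, was at 0.21 without a call and at 0.63 against the arrays labelled vehicle. Its other probe set gave 0.16, also without a call, and 0.24. The iron chaperone genes PCBP1 and PCBP2 were at -0.28 and -0.27 against the arrays labelled R1881, and probe sets of PCBP2 ran from -0.34 to 0.21.

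Iron-sulphur cluster assembly genes went both ways. Of 10 measured, 1 was higher and 3 lower than on the arrays labelled R1881, and 3 were higher and 3 lower than on those labelled vehicle (limma). Over all genes 13.7% were higher and 13% lower against R1881, and 14.8% and 11.4% against vehicle. NFU1, a late carrier of clusters in mitochondria, was at -0.99 (limma adjusted p = 3.27e-06) and -0.18 (adjusted p = 0.212), and FDX1, a ferredoxin, at -0.39 and 0.48. ISCU, the scaffold protein gene, was at -0.01 against the arrays labelled R1881 and 0.66 against those labelled vehicle (adjusted p = 0.967 and 2.67e-06). ISCA1 was at -0.49 in the latter comparison.

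Of 7 measured regulators of the NRF2 and BACH1 axis, 5 were higher and 0 lower than on the arrays labelled R1881, and 4 higher and 0 lower than on those labelled vehicle (limma), with the same counts at an unadjusted p under 0.05. The shares of all genes called higher were 13.7% and 14.8%, and lower 13% and 11.4%. This list, like the others, was chosen with earlier results of these data known, so its counts are a description only. NFE2L1 (0.06 and 0.06) and BACH2 (-0.04 and -0.02) were called in neither comparison, and MAFF rose by 0.19 over the arrays labelled R1881 and stood at -0.01 against those labelled vehicle, without a call. NFE2L2, the gene of NRF2, rose by 0.58 and 0.53 on the log2 scale, from 243 ± 19.2 (R1881) and 249.8 ± 5.89 (vehicle) to 361 ± 5.96 (SD, n = 3). KEAP1, the adaptor that targets NRF2 for degradation, rose by 0.57 and 0.65, and MAFG, a small MAF partner of both NRF2 and BACH1, by 0.66 and 0.53. BACH1 itself rose by 0.69 and 0.71, from 31.8 and 31.3 to 51.4, and is dim in all groups, so its fold is approximate.

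**Figure D3:**
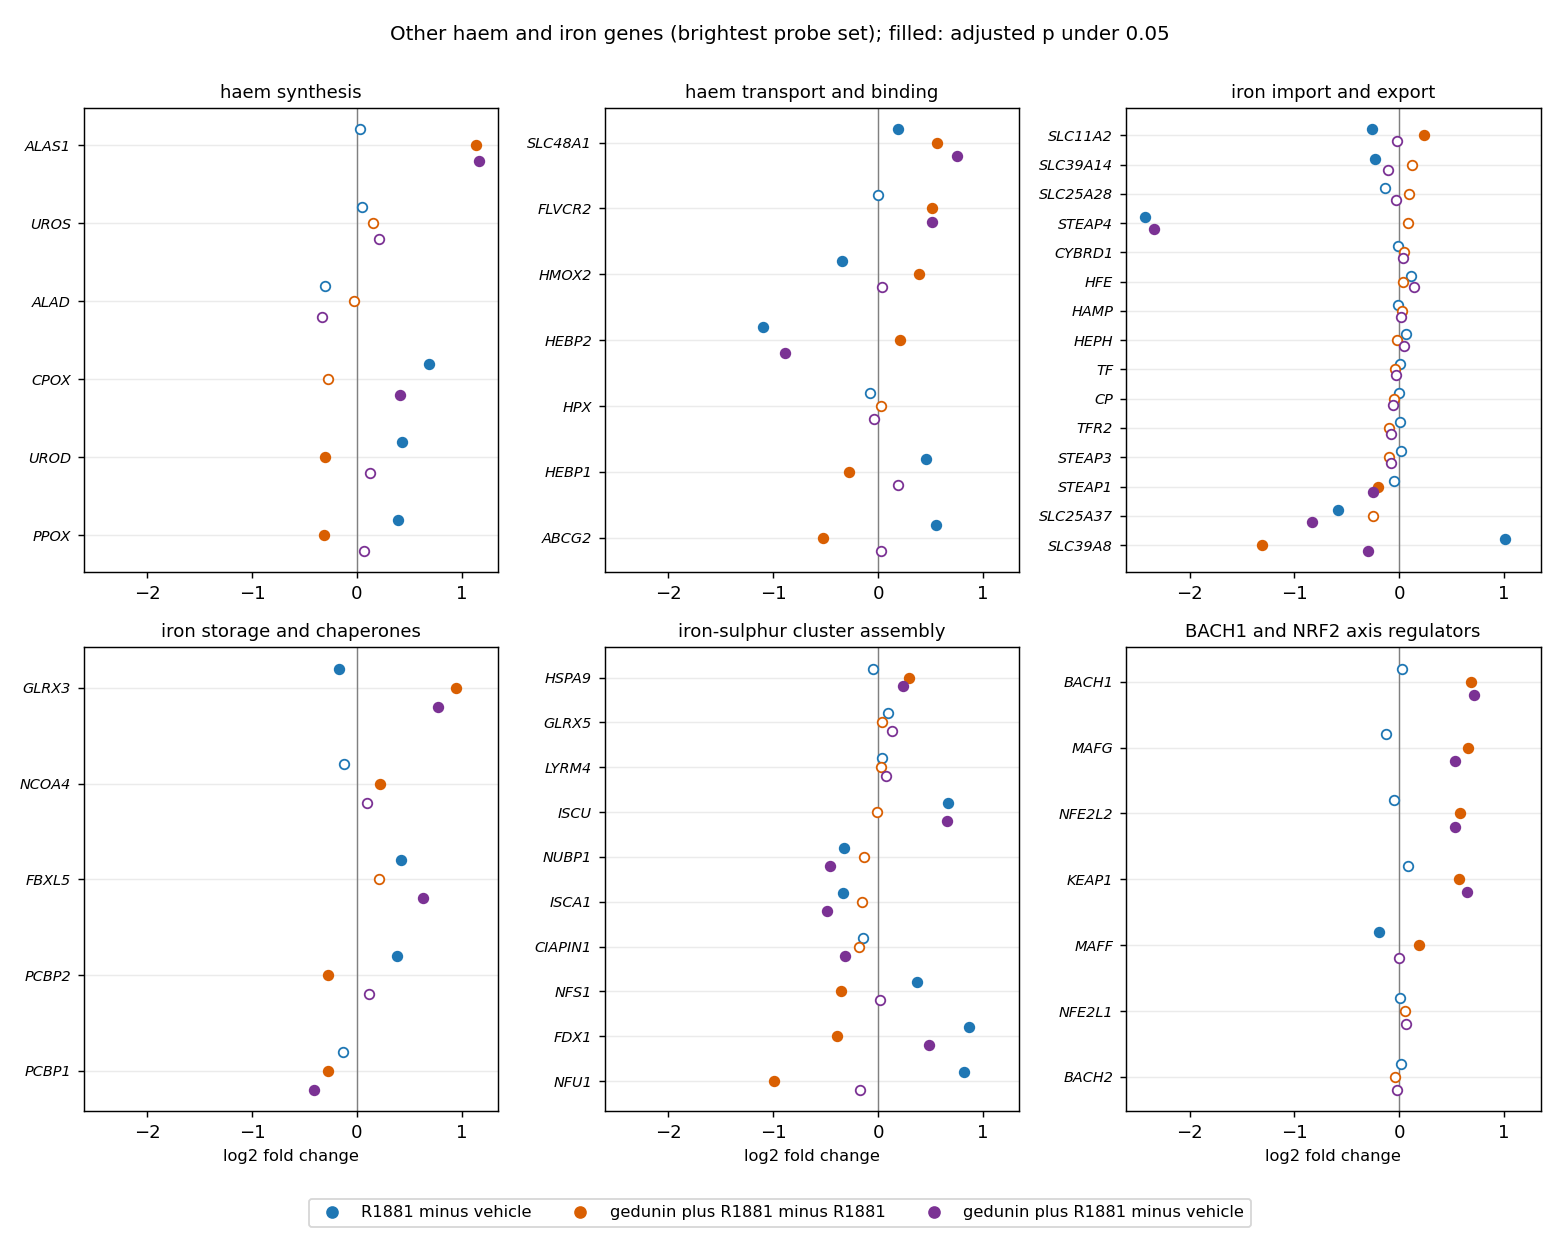
Log2 fold change (x axis) of other haem and iron genes by their brightest probe set (y axis), 1 panel per gene list, in the 3 comparisons; filled points have an adjusted p under 0.05. ALAS1 at 1.14 and 1.17 stands apart from the other haem synthesis genes, and 4 of the 7 regulators lie between 0.53 and 0.71 in both gedunin comparisons.

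The genes nearest HMOX1 in pattern were sought among 607 other genes whose group means differed at least 2-fold, by the root mean square difference between profiles over the 9 arrays after each was centred and divided by its own SD. A value of 0 means the same shape. The nearest were SQSTM1, an autophagy receptor gene, at 0.062, AKR1C1 at 0.079, the amino acid transporter subunit gene SLC3A2 at 0.082, the quinone reductase gene NQO1 at 0.083 and AKR1C2 at 0.091. Their log2 rises over the arrays labelled R1881 were 1.68, 3.40, 2.12, 2.02 and 3.66. All are smaller than that of HMOX1, which ranked 1 by rise among all probe sets. AKR1C1 and AKR1C2 are paralogs that their probe sets cannot fully separate. For TFRC, among 608 genes, DNASE2B was nearest at 0.129, then ARMCX3 at 0.141 and ID2 at 0.152. These 3 were lowest on the arrays labelled R1881, at -0.97, -0.77 and -0.65 against those labelled vehicle, an order that follows from choosing them for likeness to TFRC. The 9 arrays fall into 3 groups, so likeness here is mostly likeness of group means.

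**Figure D4:**
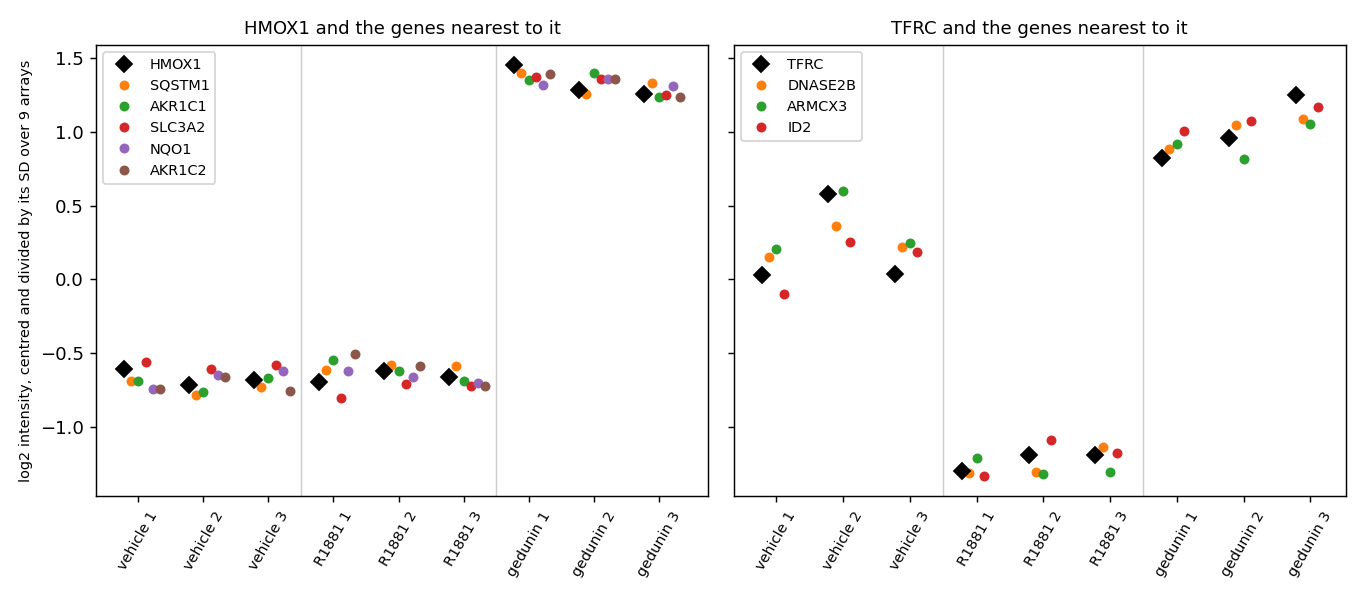
Log2 intensity centred and divided by its SD over 9 arrays (y axis, no unit) for HMOX1 with its 5 nearest genes and TFRC with its 3 nearest, by array (x axis); points of 1 array are set side by side. The HMOX1 genes separate the gedunin arrays from all others, while the TFRC genes are lowest on the arrays labelled R1881, as genes chosen for likeness to these 2 profiles would be.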

How the data were processed

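RMA, named in the submitters' processing notes, gave the deposited values, which are linear intensity, 1 per probe set and array; the RMA software is not given in the sources used here. RMA subtracts background, quantile-normalises arrays and summarises probes, so a change in total RNA per cell cannot be seen. Of 22277 probe sets, 62 controls were left out. Here the deposited intensities were turned into log2 values, without a filter, and limma 3.58.1 (R 4.3.3) estimated a mean for each of the 3 groups from the 9 arrays together, with moderated variances. Tests were two-sided, with Benjamini-Hochberg adjustment over 22215 probe sets and a threshold of 0.05, and the code was tested on simulated data. Names come from the platform annotation, using probe sets with 1 symbol, and a gene outside the group is its brightest probe set (11964 genes). Members and gene lists were chosen with earlier results of these data known. The text gives values of every member probe set. It names up to 4 called genes with the largest change per list, a fixed set of genes, and the nearest genes in pattern. Of the fixed set, SLC40A1 is not analysed here. The number of arrays, 3 per group, limits the precision, and p-values measure the spread between these samples, which may be technical.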

Additional observations from a re-analysis of the deposited data

How the results depend on the processing

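Over 17 alternative settings, 808 of 837 values of single member probe sets kept their direction and their side of the threshold, 15 lost a call, 2 gained one and 12 changed sign. None of the sign changes was of a called value. With a pseudocount of 16, ABCB6 203191_at against the arrays labelled R1881 went to -0.00054. Leaving out 1 array moved it between -0.066 and 0.072, and between -0.13 and 0.0084 for R1881 minus vehicle. Likewise BLVRA 203772_at ran from -0.086 to 0.095 and from -0.16 to 0.018, HMOX1 for R1881 minus vehicle from -0.037 to 0.12, and FECH 203116_s_at against the arrays labelled vehicle from -0.047 to 0.0099. BLVRA 211729_x_at lost its call over the arrays labelled R1881 in 10 settings. With the brightest probe set per gene, which tests fewer features, member calls were 8, 7 and 3 higher for gedunin minus R1881, gedunin minus vehicle and R1881 minus vehicle, and calls over all genes were 1678 higher and 1601 lower, 1801 and 1419, and 2001 and 1624. A further quantile normalisation gave 1 member lower for gedunin minus R1881. Leaving out 1 array gave 13 to 14 and 11 to 12 members higher in the gedunin comparisons and 5 each time for R1881 minus vehicle. The replicate numbers did not pair the gedunin arrays with the other groups. Deviations of same-numbered arrays correlated with r between -0.10 and 0.14, and of other-numbered arrays between -0.15 and 0.16. Of 9 arrays, 0 matched best with their own number in both other groups. Each array labelled R1881 matched its own number best among those labelled vehicle, at 0.12, 0.14 and 0.05. Gedunin replicates 1, 2 and 3 matched best with numbers 3, 1 and 2 in both other groups. A block by replicate number therefore does not test a pairing of the gedunin arrays. With the replicate number as a block, 13 members were higher for gedunin minus R1881, 12 for gedunin minus vehicle and 5 for R1881 minus vehicle, and 2707 probe sets were called higher for gedunin minus R1881. Folds against dim groups are limited by background.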
